A study of Homo sapiens with 6 samples.

Results

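The transcripts of 10 genes of the cullin-RING ubiquitin ligases were examined in HK-2 cells after knockdown of INO80. They are the cullins CUL1, CUL2, CUL3, CUL4A, CUL4B and CUL5, the RING proteins RBX1 and RNF7, and NAE1 and UBA3, the subunits of the enzyme that activates NEDD8. The members were selected on the measured contrast itself, because CUL5, RNF7 and NAE1 had come out lower under INO80 siRNA in an earlier pass over these counts, and the others were added as their partners. Their differences between the groups are therefore a description and were given no test of their own. Rows were matched by gene symbol, each of the 10 symbols had 1 identifier, and all 10 were among the 15343 genes tested out of 57905 in the table.

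HK-2 is an immortalized line of human proximal tubular cells, labelled wild type. Of 6 poly-A RNA-seq libraries, 3 came from cells transfected with control siRNA and 3 from cells transfected with INO80 siRNA, both harvested after 48 h. Both siRNAs were pools, so the effects of their single sequences cannot be told apart, and no untransfected cells were analysed here. Nothing in the labels says whether the 3 libraries of a group came from separate cultures, so the spread between them may be technical in part. One label field of the control libraries also names INO80 siRNA, while their titles and their treatment field give control siRNA.

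A cullin is the scaffold of a ligase. Its carboxy-terminal end holds a RING protein that recruits a ubiquitin-loaded E2 enzyme, and its amino-terminal end holds, through an adaptor, a receptor that binds the protein to be ubiquitinated. RBX1 serves CUL1, CUL2, CUL3, CUL4A and CUL4B, whereas RNF7, also called RBX2 or SAG, is the RING partner of CUL5. The ligases are switched on when the small ubiquitin-like protein NEDD8 is attached to the cullin. NAE1 and UBA3 form the E1 enzyme that starts this reaction, the E2 enzyme UBE2M passes NEDD8 to the RBX1-bound cullins and UBE2F passes it to CUL5, and the COP9 signalosome removes it. In the proximal tubule and elsewhere, CUL2 with VHL turns over hypoxia-inducible factors and CUL3 with KEAP1 turns over NRF2.

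Short stretches of sequence in CUL5 and RNF7 are given first, because matches to them were looked for in all members. AACGGCA is a run of 7 bases that an earlier scan of this same contrast had picked out as common among transcripts lower under INO80 siRNA, so its presence supports nothing about that contrast. Among the canonical transcripts of the 10 members in GENCODE v44, CUL5 was the only one that held it. One copy lies in the coding sequence in exon 17 of 19, within chr11:108097650-108097678 on the plus strand of hg38, and the other in the 3′ untranslated region in exon 19, within chr11:108104878-108104906. Capitals mark the 7 bases in both windows.
CUL5 coding: cccaaaactcaAACGGCAagttttgttgt
CUL5 untranslated: caacattgggaAACGGCAgatgtaggtga

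TGACGT, the core of the cAMP-response element, was searched on both strands of the RefSeq promoter windows, which run from 250 bases before to 50 bases after each start in GRCh38.p14. All 10 members matched the table, with 23 promoters. The motif was in 2 of these promoters (8.70%), those of CUL5 and RNF7, and in 7.97% of all 34796 promoters of the same length, so its share among the members was about that of the background. In CUL5 it lies within chr11:108008910-108008939 on the plus strand, at bases 25 to 30 of the transcript, where it overlaps an E-box (CACGTG). An E-box was also in promoters of CUL4B and RBX1, and in 7.20% of all promoters. In RNF7 it lies within chr3:141738163-141738192 on the plus strand, before the start, in a palindrome that reads the same on both strands. Capitals mark the bases of TGACGT on either strand.
CUL5 promoter: cctcgcgtcacgTGACGTggccgcggaacc
RNF7 promoter: ctggcgtcaggTGACGTCActgtgccgcgc

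With the 250 bases before the start alone, RNF7 was the only member with the motif, 1 of 23 member promoters (4.35%) beside 7.08% of all. The GC box GGGCGG was in a promoter of 9 members, all except NAE1. Counted by promoter, it was in 12 of the 23 (52.2%), against 44.9% of all promoters. The promoter of NAE1 held the CCAAT box (CCAAT), as did promoters of CUL1, CUL4B and RNF7. This box was in 6 of the 23 member promoters (26.1%), against 34.6% of all. NAE1 also had a partial site of NRF1 (TGCGCA), as did promoters of CUL1, CUL3, CUL4A and RBX1. That site was in 5 of the 23 (21.7%), against 8.18% of all. The ETS core CCGGAAG was in promoters of CUL4A and CUL4B, against 10.2% of all, and AAGATGGC, a YY1 core, was in CUL4B, against 2.89%. The E2F core TTTGGCGC was in none of the member promoters and in 0.652% of all. These are matches of letters, and no binding was measured in these files.

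Each member was read at high depth. Totals on genes ran from 16829273 to 20311588 reads in the control siRNA libraries and from 20678008 to 23784599 in the INO80 siRNA libraries, and each member had between 602 and 2624 reads in a library. Levels are given in CPM, which are counts relative to library sizes after TMM scaling, where a gene is compared between libraries, and in FPKM, which divides by exonic length, where genes are compared with each other. Both are shares of a library, so neither the number of cells nor the RNA per cell can be read from them. INO80, the targeted gene, was at 46.3, 49.3 and 54.0 CPM in control replicates 1, 2 and 3 and at 13.8, 12.1 and 14.2 CPM in INO80 siRNA replicates 1, 2 and 3, a level 0.267 times that of the control (adjusted p = 0.000161, edgeR's quasi-likelihood test), so the libraries matched their labels.

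The cell type was checked against markers. PAX8, a transcription factor of the renal tubule, had 40.9 FPKM under control siRNA, and the brush-border enzyme GGT1 had 37.7. Other defining markers of the proximal tubule were close to 0, with means of at most 0.0967 FPKM for AQP1, ANPEP, LRP2, CUBN, SLC34A1 and SLC22A6. Epithelial keratins were high, with KRT19 at 222.4 FPKM, whereas CDH1 was at 0.0467 and CDH2 at 74.2. Summed endothelial markers reached at most 0.02 FPKM, led by CDH5. Leukocyte markers summed to at most 0.63, led by CD68, and podocyte markers to at most 0.71, led by PODXL. Fibroblast markers summed to 5.02 to 9.68 FPKM under control siRNA and 5.90 to 11.8 under INO80 siRNA, nearly all from COL1A1 and DCN. Their part in the results on the members was not tested.

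Under control siRNA all 10 members were expressed above the median of the tested genes, which was 4.61 FPKM. CUL1, the scaffold of the SCF ligases, was highest at 26.6 ± 1.39 FPKM (SD, n = 3), and its range overlapped that of RNF7 at 25.05 ± 0.295. RBX1 followed at 19.6 ± 0.849 FPKM. The next level was shared by CUL4A at 17.5 ± 1.41, CUL4B at 16.3 ± 1.66 and NAE1 at 15.9 ± 0.729 FPKM, neighbours whose ranges overlapped. UBA3 was at 13.5 ± 1.37, CUL2 at 11.6 ± 0.870 and CUL3 at 8.13 ± 0.353 FPKM. CUL5 was lowest at 6.41 ± 0.133 FPKM, yet above 58.3% of the tested genes.

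The order depends on the length that divides the count. The deposited exonic lengths join the exons of every transcript of a gene, which gives NAE1 4810 bases where its canonical transcript has 1813, and RBX1 3092 where it has 1169. With canonical lengths RBX1 came first at 51.9 FPKM and NAE1 next at 42.3, ahead of CUL1 at 29.97 and RNF7 at 29.5. CUL5 was lowest by both lengths. A second limit is overlap, because the span of RBX1 on chromosome 22 (41347351 to 41369313, GRCh37 coordinates, as for all deposited positions) overlaps XPNPEP3 on the same strand, and that of CUL4A on chromosome 13 (113862552 to 113919399) overlaps PCID2 on the other strand. These neighbours had mean counts of 375.7 and 682. The pseudogenes RNF7P1 and CUL4AP1 had no counts.

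**Figure D1:**
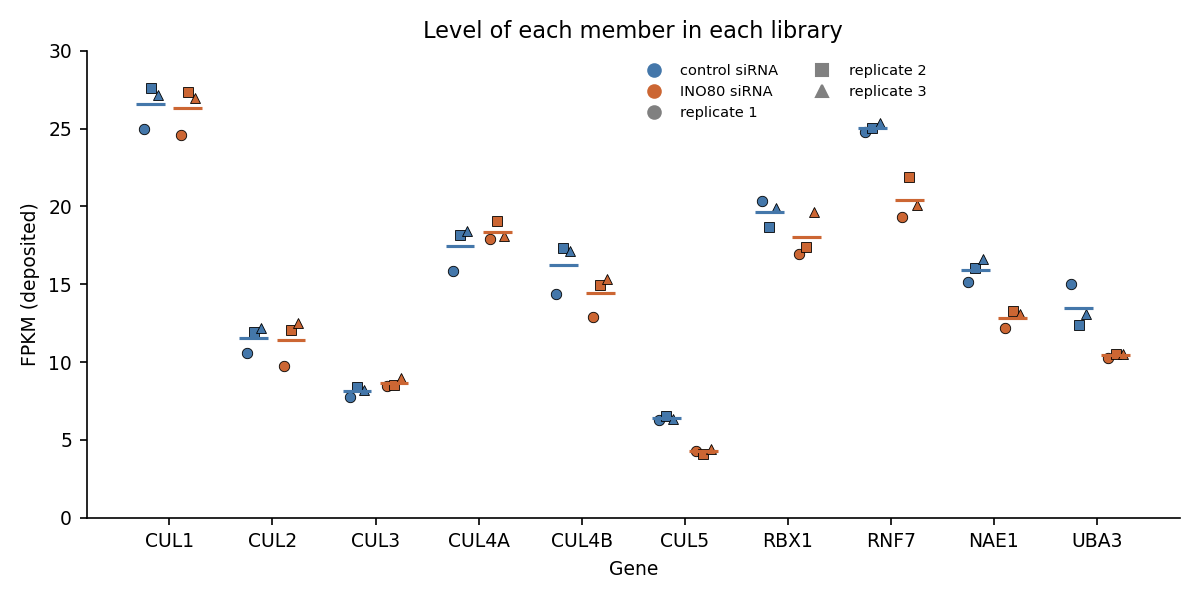
Deposited FPKM (vertical axis) of the 10 members in each of the 3 control siRNA libraries (blue) and 3 INO80 siRNA libraries (orange), with the replicate number given by the marker shape and the group mean by a line. The INO80 siRNA libraries lie below all control libraries for CUL5, RNF7, NAE1 and UBA3, and the groups overlap for CUL1, CUL2, CUL4A, CUL4B and RBX1. The CUL3 groups part narrowly in FPKM, at 8.43 and 8.44, and overlap in CPM.

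The members' counts were then set beside the whole table. In the comparison of INO80 siRNA with control siRNA by edgeR, with the treatment alone in the model, 1.75% of the 15343 tested genes had an adjusted p under 0.05 and 1.49% had one and were lower. A gene with such a p is called here. Among the 10 members 3 were called, CUL5, RNF7 and NAE1, and all were lower, which is the count that chose them and from which nothing is read. In CPM the groups did not overlap, with INO80 siRNA lower, for 4 members, CUL5, RNF7, NAE1 and UBA3, against 11.5% of tested genes in that direction and 22.8% in either. None of the members was higher without overlap in CPM. The median log2 fold change was -0.16 over the members and 0.0066 over all tested genes. CUL5, RNF7 and NAE1 were chosen for being lower, so nothing is read from the overlap count or from these medians either. The threshold fell between RNF7, at an adjusted p of 0.0472 by edgeR, and UBA3, at 0.0801.

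Replicate numbers were shared by libraries that deviated alike, and a model with the replicate number as a block called many more genes. With that block, 24.8% of tested genes had an adjusted p under 0.05, 13.4% lower and 11.4% higher. Of the members 5 were called, all of them lower, since UBA3 and CUL4B joined CUL5, RNF7 and NAE1. As the last of these were chosen for being lower, nothing is read from that count beside the share of all genes. The set of members called thus depended on the model, and the question whether CUL5, RNF7 and NAE1 differed while the other members did not has no single answer by counts of calls. A test of the difference between one member and another was not run, because the members were chosen on these values.

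CUL5 scaffolds ligases whose receptors carry a SOCS box. It was at 43.6, 43.96 and 42.7 CPM in control siRNA replicates 1, 2 and 3, and at 29.9, 27.3 and 29.1 CPM in the INO80 siRNA replicates. The highest treated library lay well below the lowest control library, and the libraries of each group lay close together. The means were 43.4 ± 0.633 and 28.8 ± 1.33 CPM (mean ± SD of 3 libraries each), a ratio of 0.662 and a log2 fold change of -0.59 (SE 0.0683). Within the numbered pairs the log2 difference was -0.54, -0.69 and -0.56. CUL5 had the largest difference of the members, and 455 tested genes had a log2 fold change at or under its own. It is encoded on chromosome 11 (ENSG00000166266, 107879459 to 107978503), where overlapping genes had at most 4 counts.

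RNF7 is the RING partner of CUL5. It was at 79.96, 78.4 and 79.3 CPM under control siRNA and at 62.4, 67.7 and 62.2 CPM under INO80 siRNA in replicates 1, 2 and 3. The control libraries were nearly equal, and all 3 treated libraries were lower, replicate 2 the least. The means were 79.2 ± 0.771 and 64.1 ± 3.12 CPM (mean ± SD of 3 libraries each), a ratio of 0.809 and a log2 fold change of -0.31 (SE 0.0595). The pair differences were -0.36, -0.21 and -0.35 on the log2 scale. RNF7 lies on chromosome 3 (ENSG00000114125, 141457046 to 141466402).

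RBX1, the RING partner of the other cullins, was at 64.5, 57.5 and 61.1 CPM under control siRNA and at 53.97, 52.96 and 59.7 CPM under INO80 siRNA. Treated replicate 3 lay between control replicates 2 and 3, so the groups overlapped. The log2 fold change was -0.14 (SE 0.0738) with a 95% interval from -0.30 to 0.03. With the replicate block the interval ran from -0.24 to -0.03, below 0, although RBX1 was not called in that model either (adjusted p = 0.0614, edgeR). Every pair was lower under INO80 siRNA, with log2 differences of -0.26, -0.12 and -0.03. The log2 ratio of RNF7 to RBX1 in FPKM was 0.35 ± 0.0697 under control siRNA and 0.18 ± 0.147 in the treated libraries (SD, n = 3 each), with overlapping values in single libraries. Within the numbered pairs it was lower under INO80 siRNA each time, at 0.28 and 0.18 in pair 1, 0.42 and 0.33 in pair 2, and 0.35 and 0.03 in pair 3. The summed FPKM of both RING genes was 44.7 ± 0.815 and 38.4 ± 1.90.

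NAE1 is the regulatory subunit of the NEDD8-activating enzyme. It was at 74.8, 76.6 and 79.4 CPM in control siRNA replicates 1, 2 and 3, and at 60.3, 62.9 and 61.75 CPM in INO80 siRNA replicates 1, 2 and 3. All treated libraries lay below all control libraries. The means were 76.95 ± 2.30 and 61.65 ± 1.26 CPM (mean ± SD of 3 libraries each), a ratio of 0.801 and a log2 fold change of -0.32 (SE 0.0566). NAE1 lies on chromosome 16 (ENSG00000159593, 66836778 to 66907159), and no gene that overlaps it had a count.

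UBA3 is the catalytic subunit of the same enzyme. It was at 61.8, 49.3 and 51.9 CPM under control siRNA and at 42.3, 41.3 and 41.4 CPM under INO80 siRNA. The treated libraries were nearly equal and below all control libraries, and control replicate 1 stood above the other 2 controls. The means were 54.35 ± 6.56 and 41.67 ± 0.569 CPM (mean ± SD of 3 libraries each), a ratio of 0.767 and a log2 fold change of -0.38 (SE 0.0894). Its fitted difference was larger than those of NAE1 and RNF7, while its standard error was also larger. Without control replicate 1 the log2 fold change was -0.28. With the replicate block the log2 fold change was -0.37 (SE 0.0575), past the threshold in that model. UBA3 also passed with the treatment alone when low counts were not filtered out (adjusted p = 0.00873, edgeR) and in DESeq2 (adjusted p = 0.016).

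The subunits of the NEDD8 E1 therefore had similar fitted differences. The log2 ratio of NAE1 to UBA3 in FPKM was 0.24 ± 0.201 under control siRNA and 0.30 ± 0.0481 in the treated libraries (SD, n = 3 each). In control replicate 1 the ratio was 0.01, against 0.37 and 0.35 in the other control libraries. Without that library the difference in the ratio turned from 0.06 to -0.06.

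**Figure D2:**
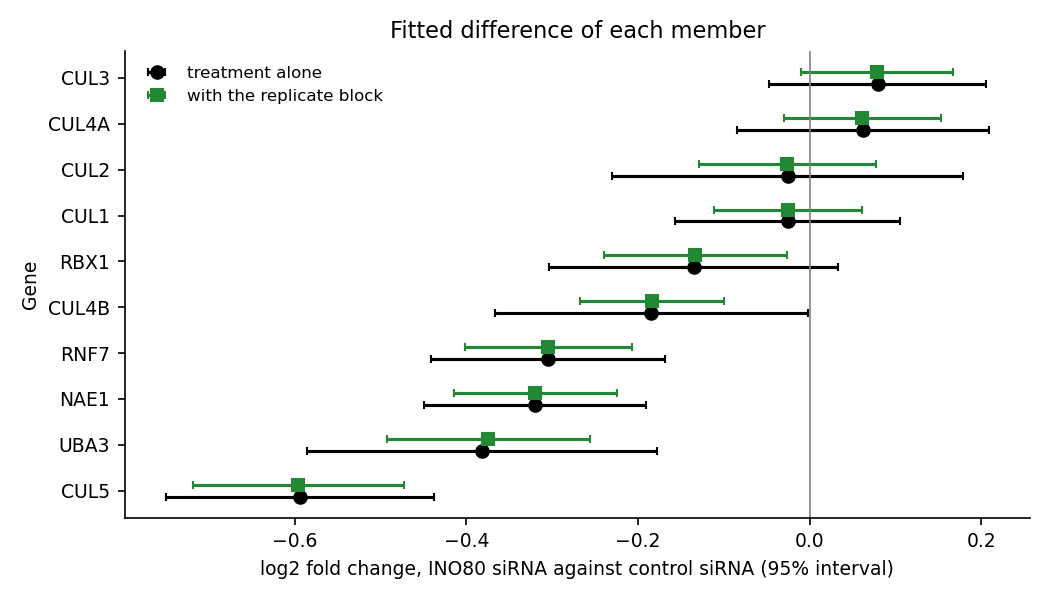
Fitted log2 fold change (horizontal axis) of each member, INO80 siRNA against control siRNA, with 95% intervals, from the model with the treatment alone (black circles) and with the replicate block (green squares). CUL5 lies lowest at -0.59, UBA3, NAE1 and RNF7 lie between -0.38 and -0.31, and the intervals of CUL1, CUL2, CUL3 and CUL4A cover 0 in both models.

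Among the cullins held by RBX1, CUL4B and CUL1 were lower in each pair. For CUL1 the pair differences were small, at -0.02, -0.03 and -0.03 on the log2 scale. CUL4A and CUL4B are close relatives that bind their receptors through DDB1. CUL4B was at 103.6, 121.0 and 119.7 CPM under control siRNA and at 93.5, 103.6 and 105.9 CPM under INO80 siRNA in replicates 1, 2 and 3. In both groups replicate 1 was lowest, and the highest treated libraries reached the lowest control library. The log2 fold change was -0.18 (SE 0.0800, 0.0409 with the replicate block), and the pair differences were -0.15, -0.22 and -0.18. CUL4A, by contrast, was at 94.2, 104.4 and 105.9 CPM under control siRNA and at 106.4, 108.7 and 102.9 CPM under INO80 siRNA. Its log2 fold change was 0.06 with an interval from -0.08 to 0.21, and its pairs went in both directions.

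CUL1, which binds F-box receptors through SKP1, had overlapping groups, at 91.0, 97.3 and 95.75 CPM under control siRNA and 89.7, 95.4 and 93.95 CPM under INO80 siRNA. Its log2 fold change was -0.03 with an interval from -0.16 to 0.11. CUL2, which binds VHL and related receptors through elongins B and C, was at 54.2, 59.1 and 60.5 CPM under control siRNA and at 49.99, 59.3 and 61.5 CPM under INO80 siRNA. Replicate 1 was lowest in both groups, and the log2 fold change was -0.03 with an interval from -0.23 to 0.18. CUL3, which binds BTB-domain receptors directly, was at 91.4, 96.4 and 93.8 CPM under control siRNA and at 99.8, 96.2 and 101.5 CPM under INO80 siRNA. Its log2 fold change was 0.08 with an interval from -0.05 to 0.21. For CUL1, CUL2 and CUL3 no difference was detectable at this depth and number of libraries, and of their intervals only that of CUL2 reaches a decrease of the size fitted for CUL4B.

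Position within the cullin pool was read inside each library, where library size cancels. Of the summed FPKM of the 6 cullins, CUL5 made up 7.89%, 7.29% and 7.13% in control siRNA replicates 1, 2 and 3 and 5.55%, 4.79% and 5.09% in INO80 siRNA replicates 1, 2 and 3. Its share was thus lower in every treated library. The share of CUL4A was 20.2% ± 0.361 under control siRNA and 22.04% ± 0.993 under INO80 siRNA, and that of CUL4B was 18.8% ± 0.703 and 17.3% ± 0.598 (SD, n = 3 each). CUL1 held the largest share in both groups, at 30.8% ± 0.493 and 31.5% ± 0.254. CUL2 held 13.4% ± 0.225 and 13.7% ± 1.05, and CUL3 held 9.41% ± 0.266 and 10.4% ± 0.478. Shares add up to a fixed whole, so a lower share of one cullin raises the others. The sum itself was 86.4 ± 5.73 FPKM under control siRNA and 83.4 ± 4.80 under INO80 siRNA, with CUL5 too small a part to move it beyond its spread.

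**Figure D3:**
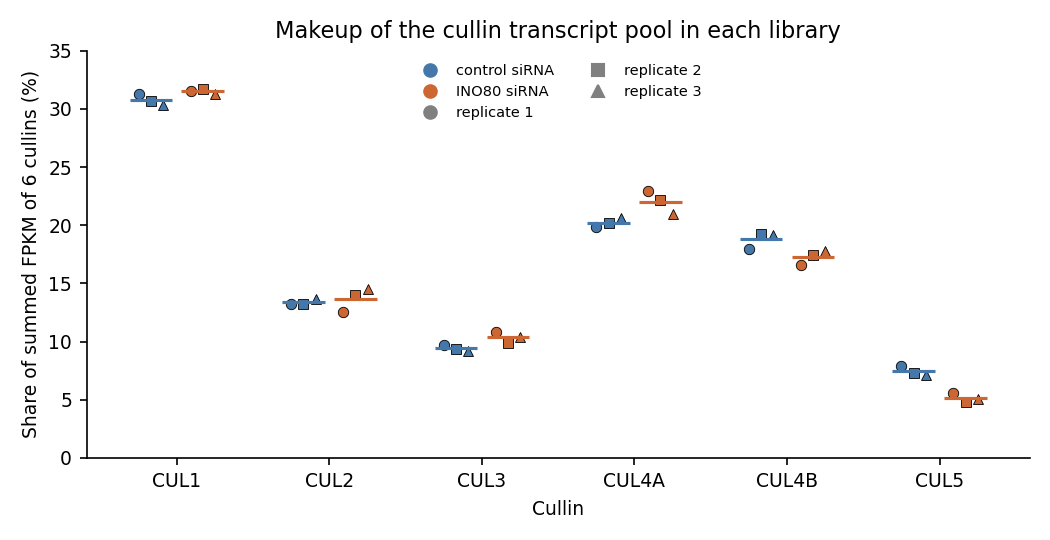
Share of the summed FPKM of the 6 cullins (vertical axis, percent) taken by each cullin in each library, control siRNA in blue and INO80 siRNA in orange, with lines at the group means. CUL5 takes 7.44% on average under control siRNA and 5.14% under INO80 siRNA, and CUL1 takes about the same share in both.

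Against the mean of the other 5 cullins, the log2 ratio of CUL5 was -1.32 ± 0.0836 under control siRNA and -1.89 ± 0.113 in the treated libraries (SD, n = 3 each). Against RNF7, its own RING partner, it was -1.97 ± 0.0290 and -2.25 ± 0.134. CUL5 was thus lower relative to RNF7 as well, by 0.29 on average, in each treated library compared with each control library.

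Replicate 1 stood apart from replicates 2 and 3 in some members. The difference between replicate 1 and the mean of the others was -0.14 under control siRNA and -0.27 under INO80 siRNA for CUL2, and -0.22 and -0.16 for CUL4B, on the log2 scale. The median absolute difference of this kind over all tested genes was 0.153 and 0.152. UBA3 had 0.29 in the controls and 0.03 in the treated libraries, and CUL4A had -0.16 and 0.01. For CUL5, RNF7 and NAE1 the size was at most 0.09 in either group. Their fitted differences without both libraries numbered 1 were -0.62, -0.28 and -0.33, a comparison added after the values were seen.

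AACGGCA, the sequence shown above in CUL5, was counted over all tested genes with a canonical protein-coding transcript. It had been picked from this same contrast as common among lower transcripts, so lower medians among its carriers follow from that choice. Of these 12669 genes, 229 (1.81%) held it in the 3′ untranslated region, with a median log2 fold change of -0.10. It was in the coding sequence only in 817 genes (6.45%), with a median of -0.06. The 11570 genes without it had a median of 0.02. CUL5 was among the 17 genes with a copy in both places, whose median was -0.21. RNF7, NAE1 and UBA3 held no copy in their canonical transcripts. Whether the sequence bears on any of these values was not tested.

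The rest of the pathway was read from 11 lists with 153 genes, of which 147 were tested. An adjusted p under 0.05 was reached by 3 of the 147 (2.04%) with the treatment alone, 2 lower and 1 higher, against 1.75% of all tested genes. With the replicate block it was reached by 46 (31.3%), against 24.8% of all tested genes. Of the 147, 14 were lower (9.52%, against 13.4% of all tested genes) and 32 were higher (21.8%, against 11.4%). The median log2 fold change of the 147 was 0.03. The members' own median was -0.16. Since CUL5, RNF7 and NAE1 were chosen for being lower, nothing is read from how these medians compare.

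The 3 genes were GLMN, KCTD5 and KBTBD6. GLMN, which binds RBX1 and blocks its access to E2 enzymes, was lowered from 13.4 ± 0.599 to 8.57 ± 0.381 CPM, means ± SD of 3 libraries each, with a log2 fold change of -0.65 (SE 0.105, adjusted p = 0.0283, edgeR). Its span overlaps RPAP2 on the other strand, which had a mean count of 502.7. KCTD5, a BTB protein that works with CUL3, likewise fell from 41.8 ± 0.447 to 31.1 ± 1.68 CPM, with a log2 fold change of -0.43 (SE 0.0695, adjusted p = 0.0283, edgeR). KBTBD6, a CUL3 receptor, rose from 8.37 ± 0.851 to 12.9 ± 0.838 CPM, a log2 fold change of 0.62 (SE 0.121, adjusted p = 0.0471, edgeR). With any single library left out, none of the 3 kept an adjusted p under 0.05 in edgeR.

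The partners closest to CUL5, RNF7, NAE1 and UBA3 were named for their roles after their values were seen. NEDD8 itself had 67.7 ± 0.516 CPM in the control libraries and 67.9 ± 2.01 in the treated ones (SD over 3 libraries), a log2 fold change of 0.0037 with an interval from -0.12 to 0.13. UBE2M, the NEDD8 E2 of the RBX1-bound cullins, had a log2 fold change of 0.02 (interval -0.11 to 0.15), and UBE2F, the NEDD8 E2 of CUL5, had 0.15 (interval -0.06 to 0.35). ARIH2, a ubiquitin ligase that works on neddylated CUL5, had 0.06 (interval -0.09 to 0.20). Elongin C (TCEB1), which joins the SOCS-box receptors to CUL5, had 0.01 (interval -0.11 to 0.13). UBE2F alone of these 5 had groups that did not overlap in CPM, with INO80 siRNA higher, against 22.8% of tested genes in either direction. None of the 5 had an adjusted p under 0.05 in either model. Other partners, given below, did with the block, among them elongin B, DCUN1D3 and DCUN1D5, which were higher, and UBE2L3, which was lower.

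Among the SOCS-box receptors of CUL5, 23 of 26 were tested and none had an adjusted p under 0.05 with the treatment alone in edgeR, in DESeq2 or in limma, while 2 (8.70%) had an unadjusted p under 0.05 in edgeR, against 16.4% of all tested genes. Their log2 fold changes ran from -0.27 to 0.31 with a median of 0.01. With the replicate block 5 (21.7%) were higher and 0 lower, against 11.4% and 13.4% of all tested genes. SPSB1 had a log2 fold change of 0.31 (blocked adjusted p = 0.0021, edgeR) and PCMTD2 had 0.23 (0.00911). Elongin B (TCEB2), the partner of elongin C, had 0.18 (0.00831), with a span that overlaps the far more abundant SRRM2 on the other strand. The log2 fold change of elongin B was 0.14 without control replicate 1 and 0.11 without both libraries numbered 1. DDB1, the adaptor of CUL4A and CUL4B, had 0.14 (0.00315).

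Of the 9 other genes of NEDD8 conjugation and release none passed with the treatment alone in edgeR or in DESeq2, and 2 (22.2%) had an unadjusted p under 0.05 in edgeR, against 16.4% of all tested genes. DCUN1D3 and DCUN1D5, which help attach NEDD8 to cullins, were higher with the block, 2 of the 9 (22.2%) against 11.4% of all tested genes. DCUN1D3 had a log2 fold change of 0.33 (blocked adjusted p = 0.0127, edgeR), with spans shared with ERI2 and LYRM1. Of the 10 subunits of the COP9 signalosome, COPS6 alone was called with the block, at -0.29 (adjusted p = 0.0558 with the treatment alone and 2.23e-05 with the block, edgeR). That is 10.0% lower, against 13.4% of all tested genes. The list of other cullins held 4 tested genes, CUL7, CUL9, ANAPC2 and ANAPC11. With the block 2 of these 4 were higher, CUL7 and CUL9, and 0 were lower, against 11.4% and 13.4% of all tested genes. The log2 fold change of CUL9 was 0.24. Of the E2 and ARIH enzymes that transfer ubiquitin, 11.1% were lower and 33.3% higher with the block, against 13.4% and 11.4% of all tested genes. Among these, UBE2L3, the partner of the ARIH ligases, had -0.26 (adjusted p = 0.053 with the treatment alone and 3.8e-05 with the block, edgeR), and UBE2D3 had 0.14.

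The receptors of the other cullins included called genes in both directions, to be read against 13.4% lower and 11.4% higher over all tested genes with the block. Of 34 tested BTB receptors of CUL3, 6 were lower (17.6%) and 6 were higher (17.6%) with the block. KLHL9 (0.30), KLHL15 (0.28) and SPOP (0.26) were among the higher ones, and KLHL20 (-0.42), KLHL18 (-0.52), KLHL13 (-0.57) and ENC1 (-0.55) among the lower ones, on the log2 scale. SPOP, KLHL13 and ENC1 had overlapping groups, and without control replicate 1 KLHL13 was at -0.36 and ENC1 at -0.35. Of 11 tested CUL2 receptors, 4 were higher with the block (36.4%), among them KLHDC3 (0.22) and ZER1 (0.23), and 1 was lower (9.09%), KLHDC10 (-0.23). Of 16 tested F-box receptors of CUL1, 3 were higher (18.8%), among them CCNF (0.25, and 0.15 without control replicate 1), and 2 were lower (12.5%). Of 25 tested DCAF receptors of CUL4A and CUL4B, 4 were higher (16.0%), among them WDTC1 (0.21) and DCAF12 (0.17), and 2 were lower (8.0%).

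**Figure D4:**
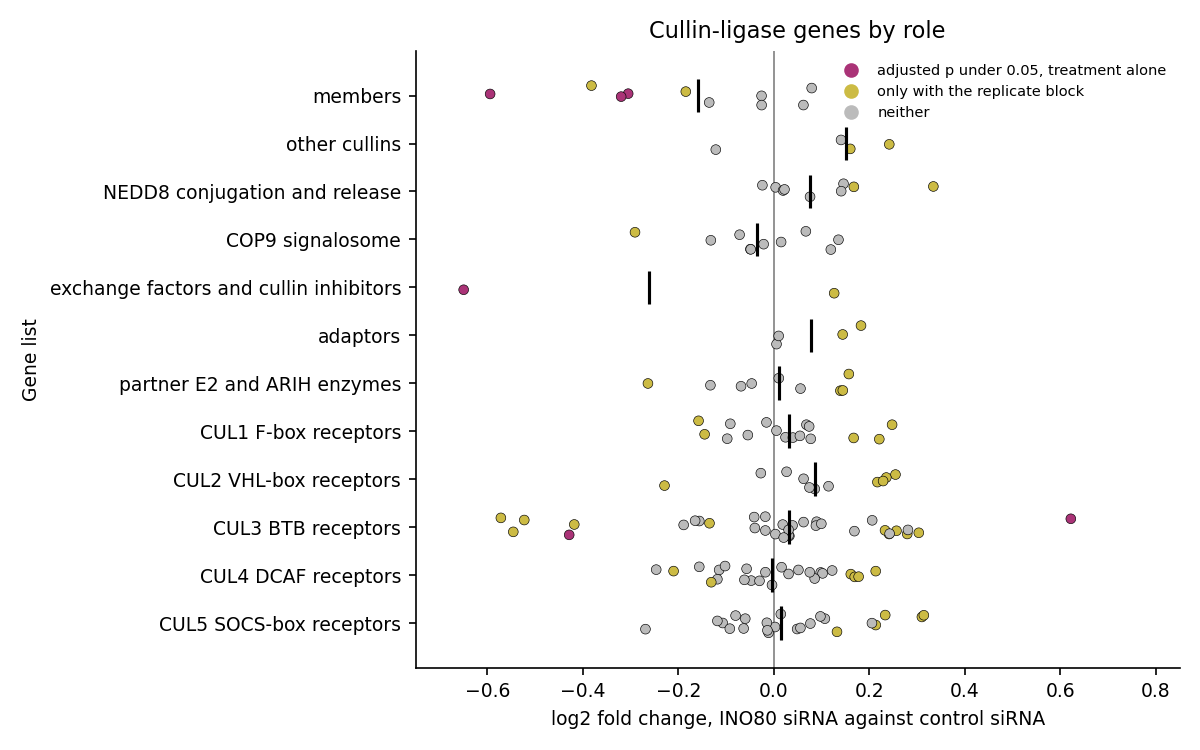
Log2 fold change (horizontal axis) of the 10 members and of the tested genes of 11 other lists of the pathway, 1 point per gene, with a black bar at each median. Purple points had an adjusted p under 0.05 with the treatment alone, yellow points only with the replicate block and grey points in neither. CUL5 and GLMN lie lowest in the plot, at -0.59 and -0.65, and the SOCS-box receptors of CUL5 centre on 0.01.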

How the data were processed

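Poly-A RNA of HK-2 cells was sequenced in 6 libraries, 3 per group. The authors deposited raw read counts per gene and FPKM values in 1 table. The FPKM values equalled count over exonic length and total count in 347430 of 347430 cases to 2 decimals. The submitters' processing notes name HISAT2 2.0.1, HTSeq and hg19, while the paper's methods name another aligner and build. The deposited coordinates end past chromosome 1 of hg38 and are those of GRCh37. The strand setting of the counting is not given in the sources used here.

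In R 4.3.3, counts were filtered with filterByExpr, scaled by TMM and fitted with edgeR 4.0.16 (quasi-likelihood test, treatment alone), with Benjamini-Hochberg adjustment over 15343 genes. Levels in CPM are means ± SD. Deviations from group means correlated across genes at 0.639, 0.446 and 0.427 between libraries of the same number, and from -0.447 to 0.165 between others, so the numbers were taken to pair the samples, although the labels name no shared batch. The model with the replicate block was an alternative, as were DESeq2 1.42.0, limma 3.58.1 on log2(FPKM + pseudocount), other filters and scalings, and each library left out. Recovery of changed genes by the edgeR steps was checked on simulated data with larger changes than those of the members and no shared replicate effect. Recovery at the sizes seen in the members was not checked. A count of 0 did not occur in the members. The precision rests on 3 libraries per group.

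Named were all members, INO80, and the 25 pathway genes with the smallest p among those called in either model. Since each pathway list held a called gene, the highest-level gene was named for marker lists only. Members, lists and motifs were chosen with earlier results of these data known. For KBTBD4 and DCAF8, which have several identifiers, the row with most reads was used. No search for outlying libraries was made in groups of 3. The result for 1 marker is not reported here.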

Additional observations from a re-analysis of the deposited data

How the results depend on the processing

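CUL5, RNF7, NAE1, UBA3, CUL4B and RBX1 stayed lower in each of the 16 alternative fits. CUL5 ranged from -0.62 to -0.49 on the log2 scale, the smallest size being limma on log2(FPKM + 1). CUL1 stayed lower in each as well, at -0.05 to -0.0007, and CUL3 and CUL4A stayed higher in each. A constant sign therefore did not set members with larger differences apart. Calls were less stable. An adjusted p under 0.05 was reached by CUL5 in 13 of the 16, NAE1 in 7, RNF7 in 6, UBA3 in 4, CUL4B in 2 and the other 5 members in 0. The number of members called was 3, and it was 5 with the replicate block, 5 with the block and both libraries numbered 1 left out, 2 with these left out and no block, 4 with no filter, 4 with DESeq2, 3 with median-ratio scaling, 3 when genes had to reach 1 FPKM on average, 1 with scaling by library totals, 1 with limma at either pseudocount, and 0 to 1 with each library left out. CUL5 kept its call in 3 of these 6 fits and RNF7 and NAE1 in 0, and the fits also have fewer libraries.

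Over all genes, 268 were called. The replicate block gave 3798, no filter 708, DESeq2 610, limma 82 with a pseudocount of 0.1 and 60 with 1, both libraries numbered 1 left out 528 and the same with the block 3978. Each library left out gave 18 to 146. Of the pathway genes, 3 were called, and it was 46 with the block, 7 with no filter, 5 when genes had to reach 1 FPKM on average, 6 with DESeq2, 1 and 0 with limma at pseudocounts of 0.1 and 1, 6 without both libraries numbered 1, 51 with the block as well, and 0 to 0 with each library left out. None of the 25 named pathway genes reversed in any alternative fit. The ratio of NAE1 to UBA3 ranged from -0.0591 to 0.120 and reversed without control replicate 1, at -0.0591. With canonical transcript lengths the control levels in FPKM were 29.97 for CUL1, 13.8 for CUL2, 13.8 for CUL3, 19.3 for CUL4B, 7.01 for CUL5, 51.9 for RBX1, 29.5 for RNF7, 42.3 for NAE1 and 25.6 for UBA3. With 250 bases before the start alone, 1 member had TGACGT, 2 had CACGTG and 4 had TGCGCA in a promoter. Beyond UBA3, CUL4B and the pathway genes given, the block changed no call of a member.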
